A study of Mus musculus with 6 samples.

Results

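The nuclear genes for the subunits of oxidative phosphorylation (OXPHOS) were followed in 6 mouse neurofibromas, which are benign nerve sheath tumours. They were chosen by symbol from the deposited count table, as the Nduf, Sdh, Uqcr, Cox and Atp5 families, without Cox7a1 and Cox8b and with at least 10 reads over all tumours. This gave 79 of 24421 genes: 36 of complex I, 4 of complex II, 8 of complex III, 14 of complex IV and 17 of complex V. A further 3 symbols of these families, Ndufs5, Cox7b2 and Cox8c, were listed at 0 reads in every tumour. The name rule leaves out the subunit genes Ndufab1, Cyc1, Usmg5 and 2010107E04Rik, and the subunits encoded by the mitochondrial genome were not analysed here. It takes in Atp5s and Atp5sl, whose products are not structural subunits of ATP synthase, and places Ndufa4, now counted with complex IV, in complex I.

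The respiratory chain of the inner mitochondrial membrane passes electrons from NADH (complex I) and succinate (complex II) through complex III and cytochrome c to oxygen at complex IV. Complexes I, III and IV pump protons, and complex V, the ATP synthase, uses the gradient to make ATP. In peripheral nerve, mitochondria supply axons and myelinating Schwann cells, and brown fat and muscle are known for a high content of respiratory chain. The transcription factors NRF1, GABPA, YY1 and the estrogen-related receptors (ERR), with the coactivator PGC-1alpha, are known regulators of these genes.

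The 6 tumours, all from C57BL/6J mice, carried floxed Nf1 (Nf1fl/fl), removed by DhhCre, a Cre driven by the Dhh promoter, which is active in the Schwann cell lineage. The group miR155KO_Nf1KO, tumours MiRNC149, MiRNC640 and MiRNC670, was in addition knocked out for the microRNA miR-155. The group Nf1KO, tumours Nf803, Nf809 and Nf827, was not. No drug was given, and the age of the mice is not stated. The labels do not say that each tumour came from its own mouse, so the spread behind each p-value may be partly technical. By the sex counts given below, each group held tumours of both sexes, so its tumours were not all from the same mouse. The libraries were made from tumour RNA of mixed cells, so a change in the mix of cell types and a change of RNA per cell cannot be told apart.

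Libraries held 13061129 to 16333181 counted reads. The host transcript of miR-155, Mir155hg, had 5, 3 and 1 reads in MiRNC149, MiRNC640 and MiRNC670, against 57, 66 and 71 reads in Nf803, Nf809 and Nf827. By Xist and Y-linked counts, MiRNC149 was female and MiRNC640 and MiRNC670 male, and Nf803 and Nf827 were female and Nf809 male. Markers of the Schwann cell lineage were present in every tumour, at a summed 2812 to 3232 CPM (reads per 1e6 counted reads, after TMM scaling) in miR155KO_Nf1KO and 2229 to 2575 CPM in Nf1KO.

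Since the members varied together across tumours, their promoters were searched for letters bound by the known regulators, in RefSeq windows (build GRCm38.p6) from 250 bases before to 50 bases after a gene's start, on both strands. Windows were found for 65 of the 79 members. The NRF1 letters GCGCATGC stood in windows of 10 of these genes (15.4%), against 5.28% of all tested genes with a window. The YY1 letters AAGATGGC stood in 11 (16.9%, against 4.72%), the ETS letters CCGGAAG, which GABPA binds, in 16 (24.6%, against 17.4%) and the ERR letters AAGGTCA in 7 (10.8%, against 4.07%). At least 1 of the 4 was found in 34 members (52.3%), against 28.0% of all tested genes with a window. A match is a run of letters, not a shown binding site. Among the well-ranked members, the windows of Ndufa4, Ndufa5 and Ndufa10 of complex I held no match, nor did those of Sdha, Cox5a, Cox7c and Atp5b. The windows of Sdhb, Uqcrc1, Cox6a1 and Atp5g3 are shown as those of well-ranked members in complexes II to V that hold a match, with the matched letters in capitals. In Uqcrc1 and Cox6a1 the NRF1 letters match both strands at overlapping positions.
Sdhb, chr4:140961021-140961320, plus strand: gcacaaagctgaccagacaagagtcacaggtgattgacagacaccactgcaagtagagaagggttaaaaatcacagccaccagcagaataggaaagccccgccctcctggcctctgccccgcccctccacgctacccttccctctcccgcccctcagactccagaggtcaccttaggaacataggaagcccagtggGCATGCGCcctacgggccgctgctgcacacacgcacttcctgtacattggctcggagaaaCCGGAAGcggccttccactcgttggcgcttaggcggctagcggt
Uqcrc1, chr9:108936398-108936697, plus strand: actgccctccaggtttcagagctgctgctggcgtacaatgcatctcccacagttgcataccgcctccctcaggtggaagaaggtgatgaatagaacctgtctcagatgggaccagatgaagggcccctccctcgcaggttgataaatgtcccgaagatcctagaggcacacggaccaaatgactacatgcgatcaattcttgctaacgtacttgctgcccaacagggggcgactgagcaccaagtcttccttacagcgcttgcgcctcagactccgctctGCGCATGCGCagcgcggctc
Cox6a1, chr5:115348909-115349208, minus strand: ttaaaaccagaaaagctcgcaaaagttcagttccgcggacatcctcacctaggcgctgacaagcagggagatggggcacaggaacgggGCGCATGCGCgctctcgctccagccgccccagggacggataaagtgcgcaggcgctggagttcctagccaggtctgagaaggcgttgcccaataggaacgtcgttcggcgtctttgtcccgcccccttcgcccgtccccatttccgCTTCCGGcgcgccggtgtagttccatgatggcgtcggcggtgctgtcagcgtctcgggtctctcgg
Atp5g3, chr2:73911277-73911576, minus strand: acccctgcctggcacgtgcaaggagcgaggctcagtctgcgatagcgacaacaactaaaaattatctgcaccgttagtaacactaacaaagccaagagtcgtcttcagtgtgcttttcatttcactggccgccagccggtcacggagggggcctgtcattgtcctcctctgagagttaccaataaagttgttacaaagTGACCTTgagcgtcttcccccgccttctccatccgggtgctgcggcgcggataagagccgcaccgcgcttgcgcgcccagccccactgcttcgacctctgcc

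The stated aim of the study was to find possible miR-155 targets, so the longest 3′ UTR of each member (GENCODE M21) was searched for letters that pair with the seed of miR-155-5p. The mature microRNA, with the seed in capitals, and the 3 members with a full 8-base site, in capitals, are shown first.
mmu-miR-155-5p: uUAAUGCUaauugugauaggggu
Ndufs1: attgtgtgcaAGCATTAActagtttaat
Ndufb5: gaatgtcattAGCATTAAgtcaggtggg
Uqcr11: tgatgggtgcAGCATTAAaccttattct
A site of 7 or 8 bases was found in 10 of 78 members with a UTR (12.8%), against 14.2% of 14020 tested genes. The UTRs of the members were short, with a median of 219 bases against 1213 bases. The other site genes were Ndufb11, Ndufb8, Ndufv2, Uqcrfs1 and Atp5g1, which matched at bases 2 to 8, and Sdhc and Atp5g2, which matched at bases 2 to 7 followed by A. The log2 fold changes of the site genes, miR155KO_Nf1KO over Nf1KO, ran from -0.28 for Atp5g2 to 0.75 for Ndufb8. They were not tested against those of members without a site. None was called by edgeR over all 6 tumours. DESeq2 called Ndufs1 higher, among 4 members that it called, against 8.49% of all genes it adjusted. Without tumour MiRNC149 edgeR called Ndufs1, Sdhc and Uqcrfs1 higher. They were among 17 of 77 members called in that fit, against 5.04% of all genes tested in it.

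The members averaged higher in miR155KO_Nf1KO, but the higher levels were those of tumours MiRNC640 and MiRNC670, while tumour MiRNC149 was at the level of Nf1KO. Summed over the members, the level was 3186, 6950 and 5320 CPM in MiRNC149, MiRNC640 and MiRNC670, against 3364, 3256 and 3517 CPM in Nf803, Nf809 and Nf827. The means were 5152 ± 1887 CPM in miR155KO_Nf1KO and 3379 ± 131 CPM in Nf1KO (SD, n = 3 each), a ratio of 1.52. The group ranges overlapped, since MiRNC149 lay below all 3 Nf1KO tumours. Within Nf1KO the sums differed little, so the wide spread was that of miR155KO_Nf1KO.

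**Figure D1:**
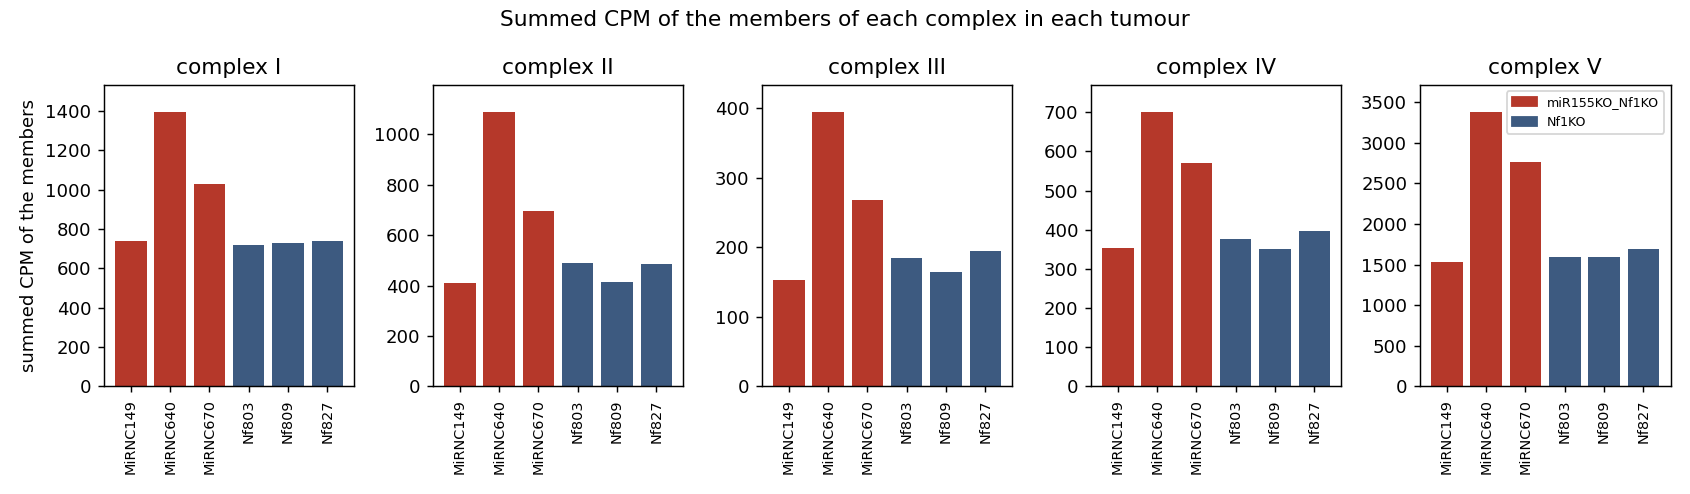
Bars give the summed CPM of the members of each complex (vertical axis, from 0; scales differ between panels) in each tumour. MiRNC640 was highest and MiRNC670 next in every complex, while MiRNC149 lay near the Nf1KO tumours.

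No member passed the test between groups. Of the 79 members, 77 had enough reads to be tested, all but Ndufa4l2 and Cox4i2. None of the 77 was called higher or lower by edgeR's quasi-likelihood test at a Benjamini-Hochberg adjusted p under 0.05 over all 15604 genes tested, where 5.22% of genes were called higher and 4.74% lower. At an unadjusted p under 0.05, 12 members (15.6%) were higher and 0 lower, against 13.5% of all tested genes higher. DESeq2 called 4 members higher, Ndufa4, Ndufa10, Ndufs1 and Atp5g3, against 8.49% of all genes it adjusted. The ranges of the groups did not overlap in 7 members (9.09%), all higher in miR155KO_Nf1KO, against 16.3% of all tested genes that were higher without overlap and 16.3% that were lower.

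The direction was nearly uniform although the single tests failed. The log2 fold change was positive in 72 of 77 members (93.5%), against 50.5% of all tested genes. Its median was 0.44, with a range from -0.38 to 0.94, beside a median of 0.01 over all tested genes. Without tumour MiRNC640 the median was 0.24, with 62 members positive. Without tumour MiRNC149 it was 0.65, and 17 members were then called higher, against 5.04% of all genes tested in that fit. These were Ndufa10, Ndufa4, Ndufb9, Ndufs1, Ndufs4, Sdha, Sdhc, Sdhd, Uqcrc1, Uqcrfs1, Cox5a, Cox6a1, Cox7b, Cox7c, Atp5a1, Atp5b and Atp5g3. With sex as a covariate the median was 0.30 and no member was called.

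**Figure D2:**
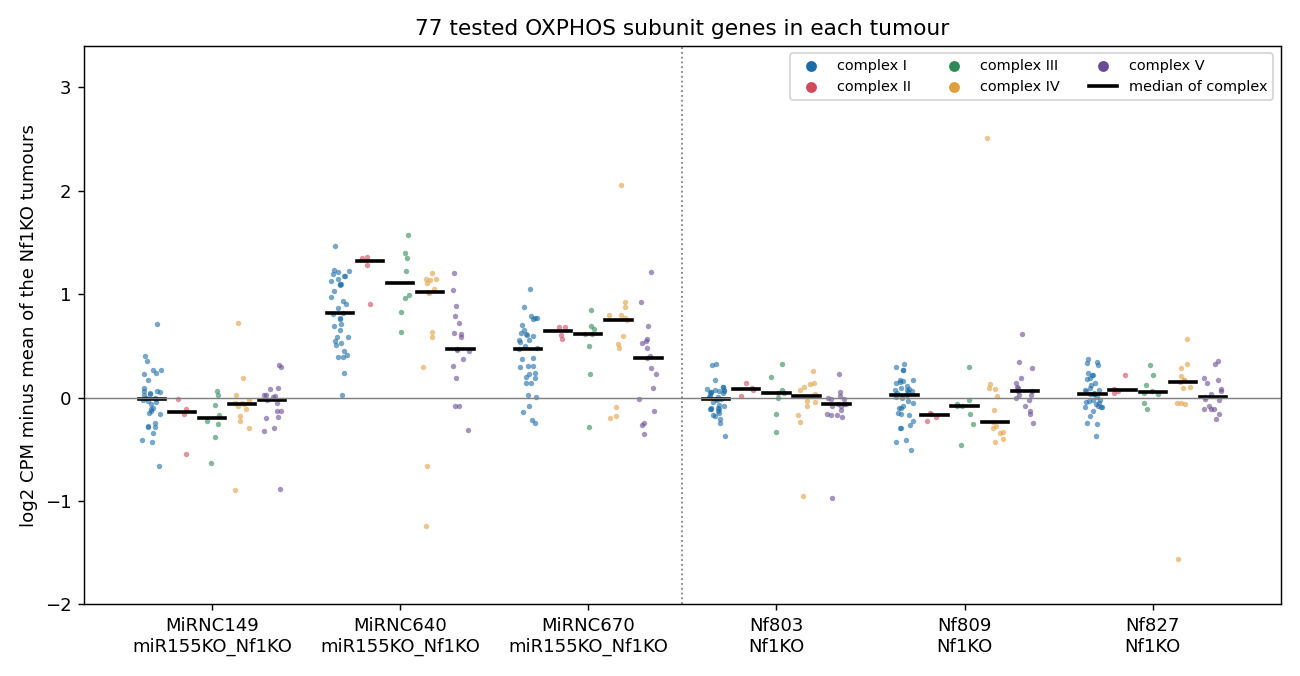
Points are the 77 tested members, each as log2 CPM minus its mean over the Nf1KO tumours (vertical axis), in each tumour (horizontal axis) and coloured by complex, with black bars at the median of each complex. The medians over all members were -0.05, 0.83 and 0.52 in MiRNC149, MiRNC640 and MiRNC670, and lay between -0.02 and 0.05 in the Nf1KO tumours.

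Tumour by tumour, 70 of 77 members in MiRNC640 (90.9%), 57 in MiRNC670 (74.0%) and 9 in MiRNC149 (11.7%) lay above all 3 Nf1KO tumours. Of all tested genes, 33.6%, 33.9% and 31.2% did in these tumours. MiRNC640 was the highest of the 6 tumours for 65 members (84.4%), against 18% of all tested genes.

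The complexes differed in the size of the deviation. By median log2 fold change they ran from 0.29 in complex V and 0.43 in complex I to 0.59 in complex III, 0.62 in complex IV and 0.68 in complex II. In MiRNC640 the median deviation was 0.47 in complex V, 0.82 in complex I and 1.32 in complex II. Without MiRNC640 the median log2 fold changes of the complexes were 0.20 to 0.30. The differences between complexes were not tested.

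**Figure D3:**
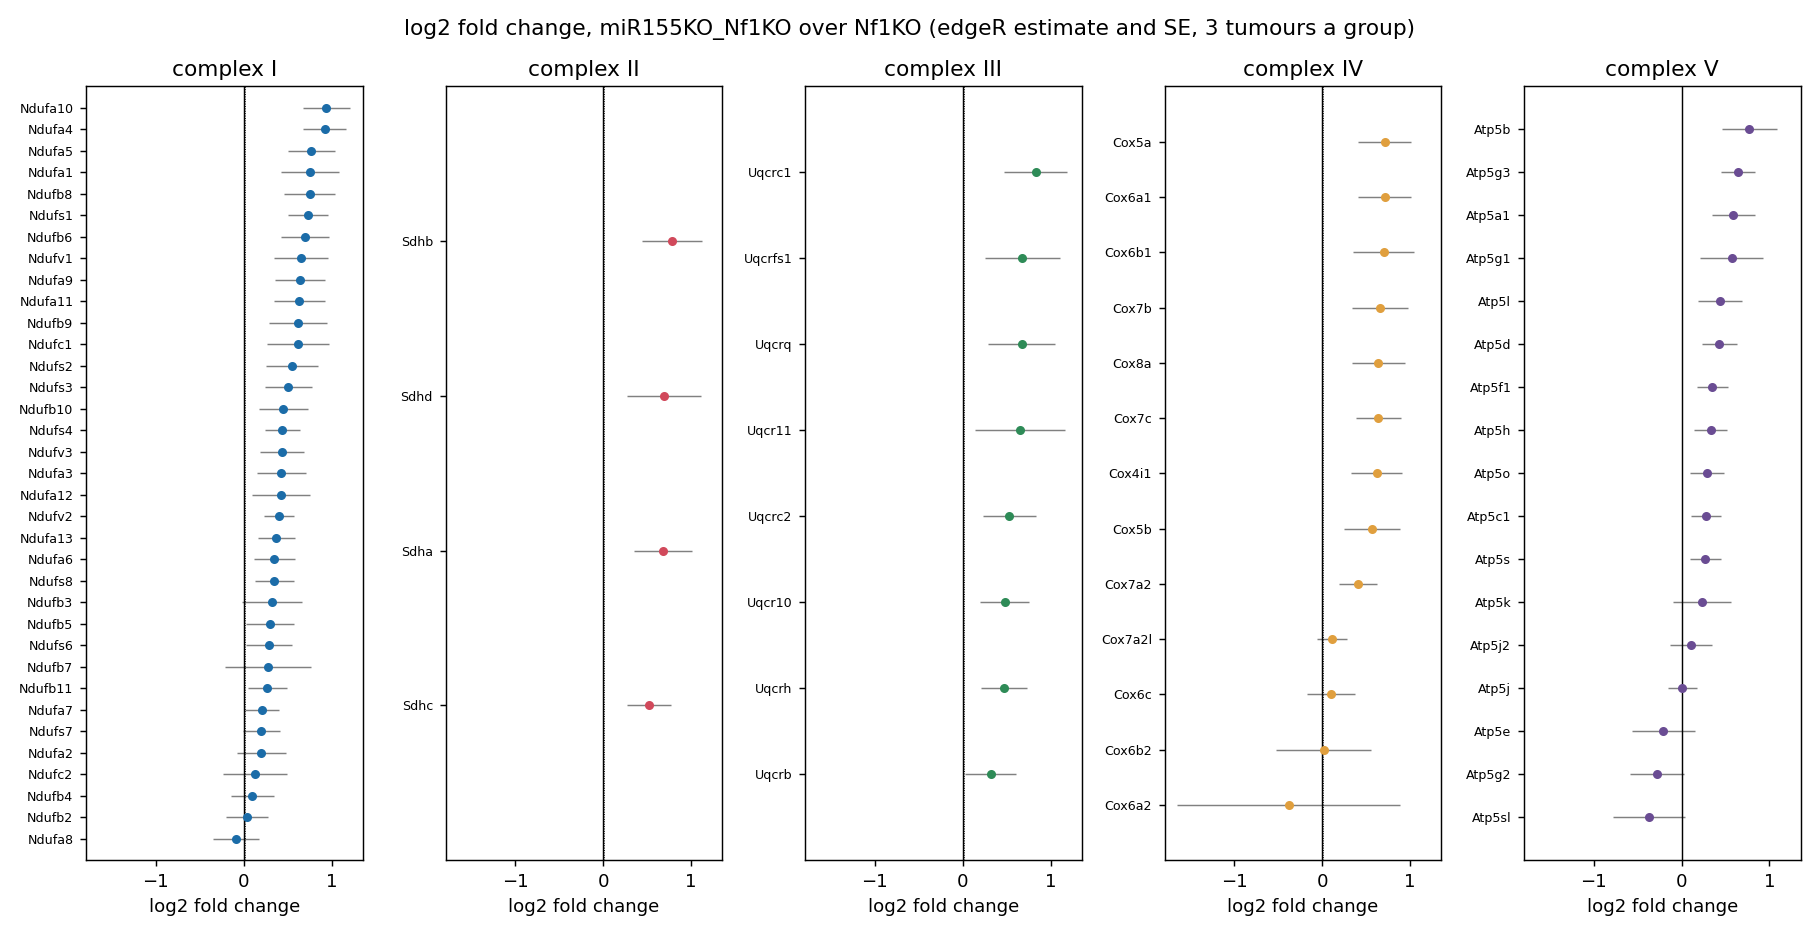
Each point is the log2 fold change of a member, miR155KO_Nf1KO over Nf1KO (horizontal axis), with its standard error, in a panel for each complex. Nearly all points lie right of 0, and 5 lie left of it: Ndufa8, Cox6a2, Atp5e, Atp5g2 and Atp5sl.

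In complex I, the NADH dehydrogenase, the groups did not overlap in 6 of 35 tested members (17.1%), a share near the 16.3% of all tested genes: Ndufa4, Ndufa5, Ndufa10, Ndufa11, Ndufb6 and Ndufs1. Ndufa4, a small subunit associated with cytochrome c oxidase (chromosome 6, 11900292 to 11907497, minus strand, GRCm38), had 49.1, 86.8 and 76.7 CPM in MiRNC149, MiRNC640 and MiRNC670, against 37.3, 31.7 and 43.1 CPM in Nf803, Nf809 and Nf827. All 3 miR155KO_Nf1KO tumours were above all 3 Nf1KO tumours, with MiRNC149 nearest to them. Its edgeR adjusted p of 0.0527 was the smallest among the members (log2 fold change 0.92, SE 0.24). Across the alternatives its adjusted p ran from 0.00621 with DESeq2 to 0.242 by edgeR without MiRNC670 and Nf809. It was 0.0487 by edgeR with no low-count filter, 0.0643 with limma voom and 0.131 by edgeR with sex as a covariate.

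Ndufa10, an accessory subunit of the membrane arm (chromosome 1, 92439010 to 92473860), had 50.2, 108.9 and 67.0 CPM in MiRNC149, MiRNC640 and MiRNC670, against 40.9, 39.1 and 37.9 CPM in Nf803, Nf809 and Nf827. The Nf1KO tumours were almost level, and MiRNC640 stood far above the rest (log2 fold change 0.94, SE 0.27, edgeR adjusted p = 0.0729). Ndufs1, the largest core subunit with iron-sulphur clusters and a carrier of an 8-base miR-155 site shown above, had 60.6, 114.6 and 76.7 CPM in the miR155KO_Nf1KO tumours, against 51.2, 53.2 and 47.5 CPM in the Nf1KO tumours (log2 fold change 0.73, SE 0.23, edgeR adjusted p = 0.0938). Ndufa5, of the arm that reduces ubiquinone, had 9.40, 18.2 and 13.1 CPM, against 7.55, 7.97 and 8.37 CPM in Nf1KO (edgeR adjusted p = 0.126).

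The log2 fold change was positive in all 7 nuclear core subunit genes (median 0.51). It was positive in 27 of the 28 other tested genes that the rule places here, Ndufa4 included (median 0.42). The exception was Ndufa8, an accessory subunit of the intermembrane face, with 11.7 ± 2.72 CPM in miR155KO_Nf1KO and 12.5 ± 2.77 CPM in Nf1KO (SD, n = 3 each). Ndufa4l2, a relative of Ndufa4 known as a hypoxia-induced gene, was hardly detected, with 2, 3 and 11 reads in miR155KO_Nf1KO, against 0, 5 and 8 reads in Nf1KO.

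Complex II, succinate dehydrogenase, also works in the tricarboxylic acid cycle. Sdha, its flavoprotein with the succinate site (chromosome 13, 74322254 to 74350280), had 299.9, 814.3 and 497.4 CPM in MiRNC149, MiRNC640 and MiRNC670, against 355.9, 300.7 and 350.7 CPM in Nf803, Nf809 and Nf827. MiRNC149 and Nf809 were level at the bottom, and MiRNC640 was at 2.43 times the Nf1KO mean. Sdhb, the iron-sulphur subunit, had 19.7, 51.1 and 31.8 CPM, against 20, 16.9 and 23.0 CPM in Nf1KO. Sdhd, a membrane anchor, had 20.2, 75.8 and 47.5 CPM, against 32.7, 26.0 and 30.5 CPM in Nf1KO. All 4 genes of the complex gave this order, in which MiRNC640 and MiRNC670 lay above all Nf1KO tumours. Their log2 fold changes were 0.52 for the anchor gene Sdhc to 0.78 for Sdhb, with edgeR adjusted p values of 0.195 or more.

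In complex III, ubiquinol-cytochrome c reductase, all 8 members had a positive log2 fold change, the smallest adjusted p by edgeR was 0.195, and no member was free of overlap. Uqcrc1, a core protein, had 21.4, 59.8 and 40.6 CPM in MiRNC149, MiRNC640 and MiRNC670, against 20.2, 20.2 and 28.2 CPM in Nf803, Nf809 and Nf827 (log2 fold change 0.83, SE 0.36). Uqcrfs1, the Rieske iron-sulphur protein, named here after its values were seen, had 22.3, 88.8 and 56.3 CPM, against 34.8, 33.4 and 36.2 CPM in Nf1KO. It thus had its lowest and its highest value within the same group. The core and Rieske genes had a median log2 fold change of 0.68, and the 5 small subunits 0.48, with Uqcrb lowest at 0.32 (SE 0.29).

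Complex IV, cytochrome c oxidase, exchanges some subunits between tissues. The general form Cox6a1 had 53.2, 118.7 and 101.5 CPM in MiRNC149, MiRNC640 and MiRNC670, against 60.5, 43.4 and 63.7 CPM in Nf803, Nf809 and Nf827 (log2 fold change 0.71, SE 0.30, edgeR adjusted p = 0.19). Cox5a, Cox7c, Cox8a, Cox4i1 and Cox6b1 had log2 fold changes of 0.71, 0.64, 0.64, 0.62 and 0.70, with edgeR adjusted p values of 0.174 to 0.254. Cox7a2 had 0.41, and its relative Cox7a2l, which acts in assembling supercomplexes, had 0.11 (SE 0.17), with 54.1 ± 9.27 CPM in miR155KO_Nf1KO and 50.1 ± 4.2 CPM in Nf1KO (SD, n = 3 each).

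Of the tissue-restricted isoforms among the members, Cox6a2, the form of heart and skeletal muscle, had 1.67, 1.28 and 13.9 CPM in MiRNC149, MiRNC640 and MiRNC670, against 1.60, 19.0 and 1.0 CPM in Nf803, Nf809 and Nf827. MiRNC670 and Nf809 were high, and these tumours also had the highest summed skeletal muscle markers, at 13637 and 21646 CPM, against 1319 and 2839 CPM in MiRNC149 and MiRNC640 and 663 and 111 CPM in Nf803 and Nf827. The log2 fold change of Cox6a2, -0.38 (SE 1.27), was 2.08 without tumour Nf809 and -2.29 without tumour MiRNC670. The testis form Cox6b2 had 2.01 ± 1.08 CPM in miR155KO_Nf1KO and 1.99 ± 0.775 CPM in Nf1KO (SD, n = 3 each). Cox4i2, a form of lung and of oxygen-sensing cells, had 6, 1 and 3 reads, against 6, 13 and 0 reads in Nf1KO.

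Cox7a1 and Cox8b, which brown fat, heart and skeletal muscle use and which the rule leaves out, set MiRNC149 apart. Cox8b had 0.773, 23.4 and 20 CPM in MiRNC149, MiRNC640 and MiRNC670, against 8.35, 5.50 and 5.62 CPM in Nf803, Nf809 and Nf827. Cox7a1 had 0.901, 15 and 9.43 CPM, against 3.27, 3.65 and 7.83 CPM in Nf1KO. MiRNC149 was thus the lowest of the 6 tumours for both genes. Of the reads of Cox8b and Cox8a together, Cox8b took 2.52% in MiRNC149, 27.7% in MiRNC640 and 28.8% in MiRNC670, against 14.6% to 20.1% in Nf1KO.

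**Figure D4:**
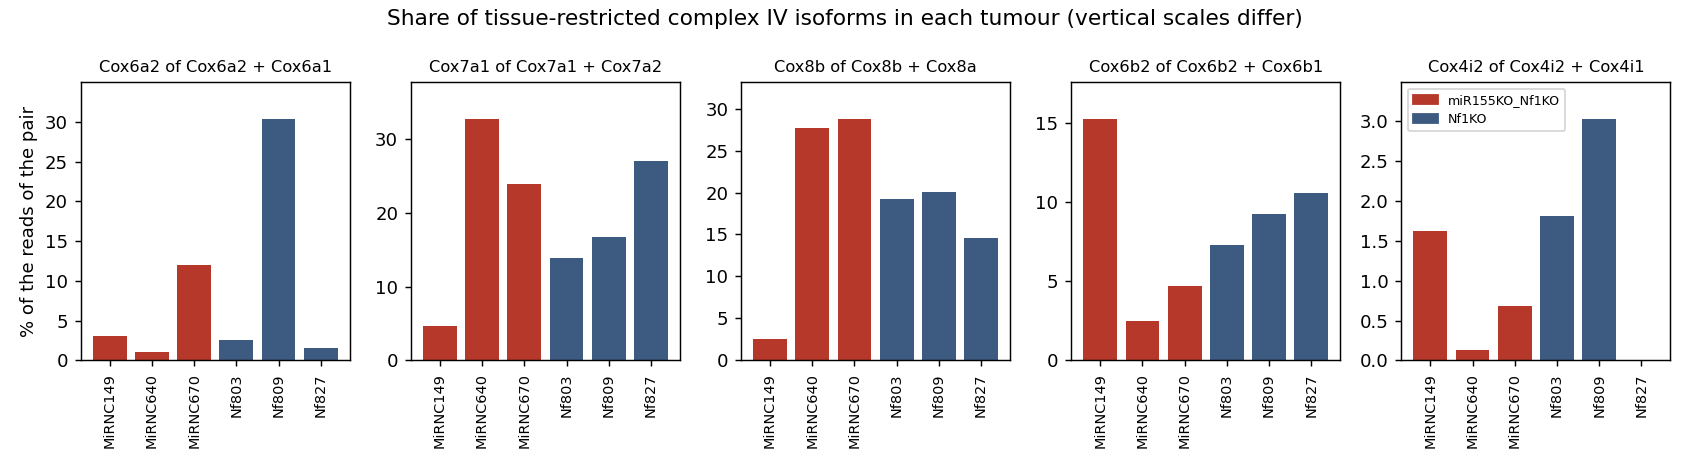
Bars give the percentage of the reads of each isoform pair (vertical axis, from 0; scales differ) that came from the tissue-restricted member, in each tumour. Cox6a2 stood out in MiRNC670 and Nf809, at 12.0% and 30.4% of the pair, while Cox7a1 and Cox8b were lowest in MiRNC149.

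Complex V had the most abundant member. Atp5b, the catalytic beta subunit (chromosome 10, 128083273 to 128090391), had 943.1, 2390.3 and 1963.5 CPM in MiRNC149, MiRNC640 and MiRNC670, against 1033.9, 978.3 and 1091.7 CPM in Nf803, Nf809 and Nf827. It took 29.6% to 36.9% of all member reads in miR155KO_Nf1KO and 30.0% to 31.0% in Nf1KO. The log2 fold change was 0.77 (SE 0.31, edgeR adjusted p = 0.164). Without Atp5b, the ratio of the summed member levels was 1.44 in place of 1.52.

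The alpha subunit gene Atp5a1 had 225.2, 454.6 and 319.4 CPM, against 202.9, 230.5 and 231.6 CPM in Nf1KO (log2 fold change 0.59, SE 0.24). The 4 peripheral stalk genes Atp5f1, Atp5h, Atp5j and Atp5o had a median log2 fold change of 0.31, with 0.01 for Atp5j. Atp5e, of the central stalk, and Atp5sl had -0.21 and -0.37.

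The c ring, the rotor in the membrane, is encoded by genes for the same mature protein, and these genes gave different patterns. Atp5g3 (chromosome 2, 73908447 to 73911326) had 39.3, 59.0 and 51.6 CPM in MiRNC149, MiRNC640 and MiRNC670, against 30.1, 36.5 and 29.6 CPM in Nf803, Nf809 and Nf827. It is the only complex V member whose groups did not overlap (log2 fold change 0.64, SE 0.19, edgeR adjusted p = 0.0811). Atp5g1 had 14.4, 10.9 and 26.8 CPM, against 10.1, 14.7 and 10.3 CPM in Nf1KO. MiRNC640, the highest tumour for most members, thus had the lowest Atp5g1 of its group. Atp5g2 was low throughout, with 3.02 ± 0.126 CPM in miR155KO_Nf1KO and 3.67 ± 0.573 CPM in Nf1KO (SD, n = 3 each).

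Levels per length, in CPM per kb of annotated exons, were compared between members over all 6 tumours. Atp5b had 330.5 ± 146.0 CPM per kb (SD, n = 6), followed by Sdha with 105.8 ± 48.2, Cox6a1 with 104.7 ± 42.3 and Atp5a1 with 88.5 ± 30.5 CPM per kb. These SDs span both groups, and the order of the last 3 was not tested. The median member had 15 CPM per kb, against 4.42 for all tested genes with a length. The lowest were Ndufa4l2 (0.312), Cox4i2 (0.408) and Ndufb7 (0.67 CPM per kb). Annotated exons can include long, rarely used ones, which lowers the value of short genes such as Ndufb7.

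Neighbouring pathways of the mitochondrion were described by the same counts and medians, with calls by edgeR unless DESeq2 is named. For the calls in all lists below, edgeR called 5.22% of all tested genes higher and 4.74% lower. DESeq2 called 8.49% of the genes it adjusted higher. Every single gene called below loses its call without tumour MiRNC670, Nf803 or Nf827, since edgeR then called 0 genes of the table, with 3240, 3335 and 3265 at an unadjusted p under 0.05. In the tricarboxylic acid cycle and pyruvate dehydrogenase list, edgeR called 1 of 17 genes higher, a share near that of all tested genes. DESeq2 called 3 of the 17 higher, a larger share than its 8.49% of all genes. The log2 fold change was positive in all 17, and its median was 0.67. In that list the gene called by edgeR was Sucla2, a subunit of succinyl-CoA synthetase, with 55.8, 144.7 and 129.3 CPM in MiRNC149, MiRNC640 and MiRNC670, against 41.3, 38.0 and 48.3 CPM in Nf803, Nf809 and Nf827 (log2 fold change 1.37, SE 0.34, edgeR adjusted p = 0.0470). In fatty acid oxidation, 0 of 13 genes were called and all 13 were positive, with a median of 0.93. Hadha, of the trifunctional protein, had 70.2, 244.0 and 184.6 CPM, against 93.7, 70.6 and 89.6 CPM in Nf1KO. Both pathways gave the tumour order of the members, with MiRNC149 lowest of its group.

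Cytochrome c (Cycs), the carrier between complexes III and IV, had 13.9, 48.0 and 37.5 CPM in MiRNC149, MiRNC640 and MiRNC670, against 16.2, 12.2 and 17.2 CPM in Nf803, Nf809 and Nf827 (log2 fold change 1.12, SE 0.42, edgeR adjusted p = 0.141). Cyc1 and Ndufab1, subunits that the name rule leaves out, had log2 fold changes of 0.89 and 0.56. All 5 genes of this list were positive; edgeR called none and DESeq2 1. Genes that build the complexes and their supply had smaller medians, a difference not tested: none of 48 assembly factors was called, with a median of 0.33, and none of 77 mitochondrial ribosomal proteins, with a median of 0.22. The 6 carriers and channels for adenine nucleotides, phosphate and VDAC had a median of 0.15, with no call by edgeR and 1 by DESeq2. Of 23 import channel genes, 1 was called higher, a share near that of all tested genes. It was Tomm20, an import receptor, at 107.6 ± 4.18 CPM in miR155KO_Nf1KO, against 59.9 ± 5.39 CPM in Nf1KO (SD, n = 3 each, edgeR adjusted p = 0.0201). In contrast to the members, Tomm20 was as high in MiRNC149, at 106.6 CPM, as in MiRNC640 and MiRNC670, at 112.2 and 104.0 CPM.

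Of 17 regulators of mitochondrial genes, 2 were called higher, against 5.22% of all tested genes, and the median was 0.00. Ppargc1a, which encodes PGC-1alpha, rose to 146.1 ± 24.0 CPM in miR155KO_Nf1KO, against 85.0 ± 15 CPM in Nf1KO (SD, n = 3 each, log2 fold change 0.78, edgeR adjusted p = 0.0408). Esrrg, an estrogen-related receptor, rose to 25.4 ± 6.52 CPM, against 10.3 ± 2.0 CPM in Nf1KO (SD, n = 3 each, log2 fold change 1.31, edgeR adjusted p = 0.0290). Both genes were higher in each miR155KO_Nf1KO tumour, MiRNC149 included, than in any Nf1KO tumour. The genes of the other factors behind the searched motifs, Nrf1, Gabpa and Yy1, named after their values were seen, had log2 fold changes of -0.29, -0.11 and -0.17 and were not called by edgeR. Nrf1 was lower in each miR155KO_Nf1KO tumour than in any Nf1KO tumour. Esrra, another estrogen-related receptor gene, also named after its values were seen, had 3.32 ± 1.42 CPM in miR155KO_Nf1KO and 3.31 ± 0.181 CPM in Nf1KO (SD, n = 3 each). Ppara had 24.5, 82.3 and 59.1 CPM in MiRNC149, MiRNC640 and MiRNC670, against 21.6, 15.3 and 20.1 CPM in Nf1KO (log2 fold change 1.54, edgeR adjusted p = 0.0591). Ppargc1b, named after its values were seen, had 3.54, 21.4 and 17.7 CPM, against 5.15, 1.98 and 5.02 CPM in Nf1KO (log2 fold change 1.81, edgeR adjusted p = 0.136). Of the 17 regulators, 9 had a positive and 8 a negative log2 fold change.

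Glycolysis, the pathway upstream, had 4 of 16 genes called higher, against 5.22% of all tested genes, and a median of 0.48. Eno2, the neuronal enolase, rose to 95.0 ± 7.45 CPM in miR155KO_Nf1KO, against 39.8 ± 7.98 CPM in Nf1KO (SD, n = 3 each, log2 fold change 1.25, edgeR adjusted p = 0.0201). Aldoc, the brain form of aldolase, and Pfkp, the platelet form of phosphofructokinase, rose with log2 fold changes of 1.62 and 0.78, and Ldhb, named after its values were seen, with 1.23.

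**Figure D5:**
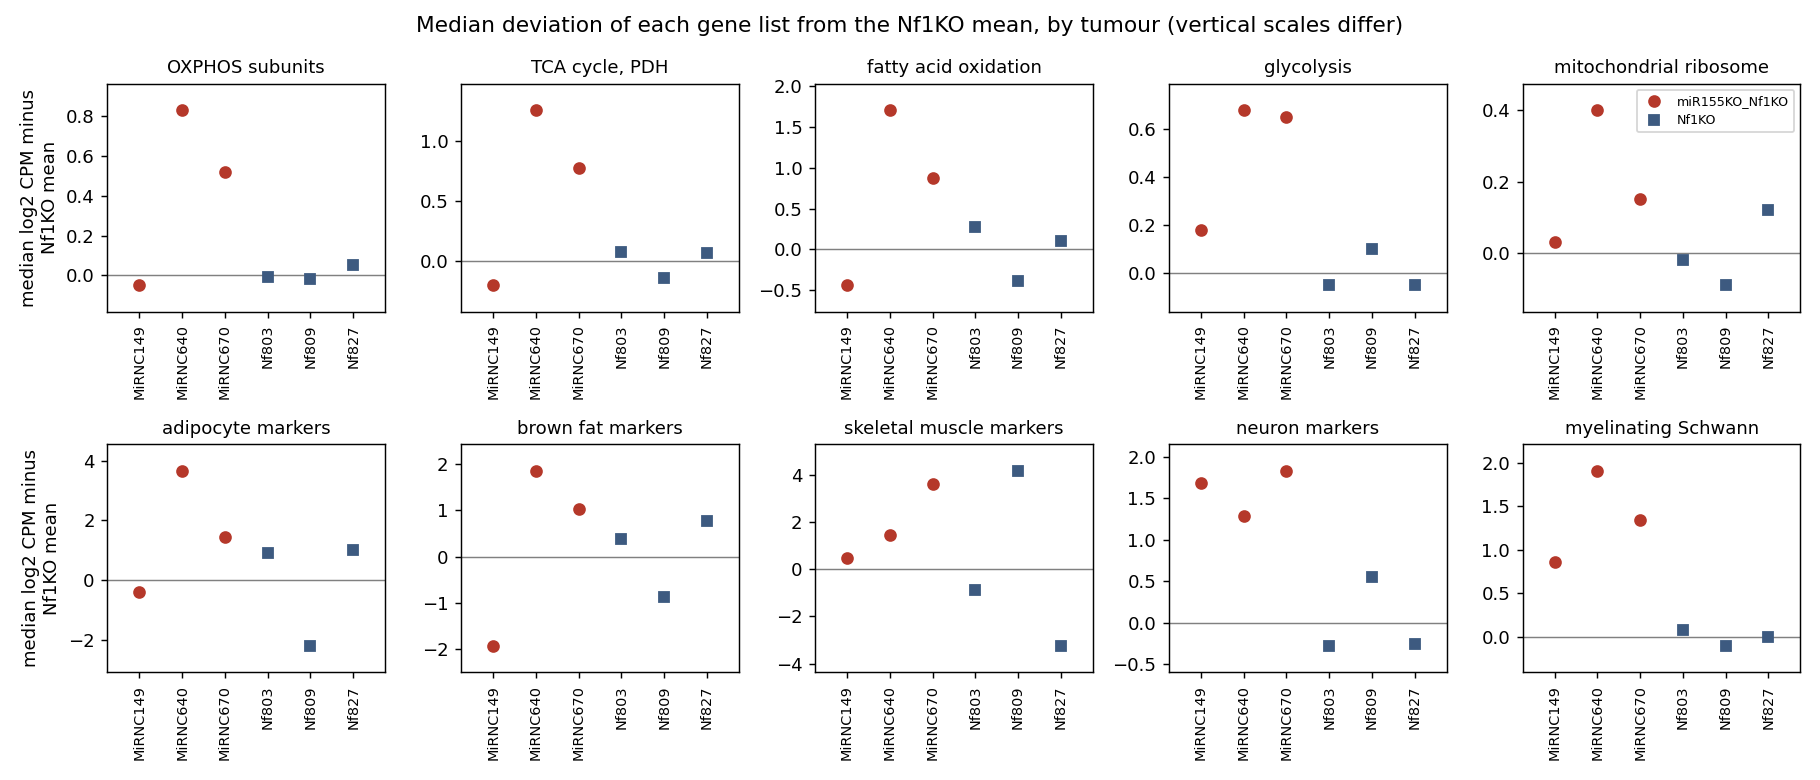
Each point is the median over a gene list of log2 CPM minus the Nf1KO mean (vertical axis; scales differ) in a tumour. The OXPHOS, tricarboxylic acid cycle and fatty acid oxidation lists are highest in MiRNC640 and lowest of their group in MiRNC149. So are the glycolysis, mitochondrial ribosome, adipocyte, brown fat and myelinating Schwann cell lists. The skeletal muscle list is highest in Nf809 and the neuron list in MiRNC670.

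Markers of other cell types moved with the tumours. None of 11 adipocyte markers was called; their summed level was 276, 5800 and 1540 CPM in MiRNC149, MiRNC640 and MiRNC670, against 848, 187 and 851 CPM in Nf803, Nf809 and Nf827. Of 7 brown fat markers, 1 was called, Ppargc1a, and their sum was 194 to 740 CPM in miR155KO_Nf1KO and 175 to 445 CPM in Nf1KO. Ucp1, the uncoupling protein of brown fat, had 5.28, 371.3 and 216.7 CPM in MiRNC149, MiRNC640 and MiRNC670, against 107.1, 2.04 and 111.4 CPM in Nf803, Nf809 and Nf827. Dio2 was the only brown fat marker with a negative log2 fold change, -0.56, and was highest in Nf827, at 239.4 CPM. Ucp1 and Dio2 were named after their values were seen. In MiRNC149 most of the brown fat sum was Ppargc1a and Dio2, at 118.5 and 67.7 CPM. Cidea and Lep, the latter named after its values were seen, were at 0 reads in Nf809. By their sums, fat markers and OXPHOS subunits shared the order of the miR155KO_Nf1KO tumours, as did the markers of myelinating Schwann cells below. In Nf1KO the fat markers differed widely between Nf809 and the others while the summed OXPHOS level stayed between 3256 and 3517 CPM. Skeletal muscle markers went the other way, with a sum of 21646 CPM in Nf809, against 663 and 111 CPM in Nf803 and Nf827. The part of fat or muscle tissue in the OXPHOS levels was not tested.

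Of 13 neuron markers, 10 were called higher, with sums of 5943 to 9217 CPM in miR155KO_Nf1KO and 1518 to 2860 CPM in Nf1KO. Of 10 markers of myelinating Schwann cells, 8 were called higher. They summed to 10241, 21500 and 14423 CPM in MiRNC149, MiRNC640 and MiRNC670, against 6408, 5464 and 5695 CPM in Nf803, Nf809 and Nf827. Of 11 macrophage markers 5 were called lower, of 9 fibroblast markers 5 were called lower, and of 8 proliferation genes 4 were called lower. Their sums were 456 to 970 CPM, 5856 to 7940 CPM and 61.1 to 90.4 CPM in miR155KO_Nf1KO, against 1382 to 2543 CPM, 13892 to 16310 CPM and 181 to 232 CPM in Nf1KO. None of 16 skeletal muscle markers was called. Myh4, and Acta1 and Tnnc2, both named after their values were seen, were at 0 reads in Nf827. In MiRNC149 the neuron and myelin sums were above all Nf1KO tumours, while its OXPHOS sum was below them. Within miR155KO_Nf1KO the myelin sums shared the tumour order of the OXPHOS sums. The neuron sums did not, at 6794, 5943 and 9217 CPM in MiRNC149, MiRNC640 and MiRNC670. The part of these cell types in the OXPHOS levels was not tested.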

How the data were processed

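RNA of 6 neurofibromas was sequenced, 3 in each group. The deposited values are raw read counts per gene; reads were aligned with HISAT2 2.0.5 to mm10 and counted with featureCounts 1.5.2, per the submitters' processing notes. The sources used here give no strand or multi-mapping settings, so members with close copies (4 have a pseudogene named after them) are less certain.

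The members and gene lists were chosen with earlier results of these data known. Named members were, per complex, the 4 with the smallest p, the lowest log2 fold change and the isoform pairs, and from each list at most the 3 with the smallest p. Counts were tested with edgeR 4.0.16 in R 4.3.3 (quasi-likelihood, TMM scaling, filterByExpr with a minimum count of 10 and total of 15, Benjamini-Hochberg adjustment over 15604 genes). A gene was called where its adjusted p was under 0.05. Each standard error is the log2 fold change over the square root of F. For deviations, log2 CPM values had a prior count of 2. Alternatives used DESeq2 1.42.0, limma 3.58.1 (voom), other scalings and filters, sex as a covariate, and each tumour left out. The fit was tested on simulated data. Replicates differed by more than sampling noise (chi-square per gene of at least 23.17). Lengths and 3′ UTRs came from GENCODE M21, promoters and the microRNA from RefSeq (GRCm38.p6). With 13061129 to 16333181 reads, 0 reads allow up to 0.184 to 0.23 CPM (3 reads), for counting error only.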

Additional observations from a re-analysis of the deposited data

How the results depend on the processing

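No member was called lower under any alternative. The number of OXPHOS subunits called higher was 0 with all 6 tumours, 1 with no low-count filter and 1 with robust edgeR estimation (chosen after seeing the data), Ndufa4 in both, and 4 with DESeq2. Leaving out each tumour in turn gave 0 to 17, where 17 was without MiRNC149. The median log2 fold change of the members stayed positive, at 0.24 to 0.65 when a tumour was left out, with medians per complex from 0.20 to 1.02. Over all genes, 815 were called higher and 739 lower, against 1477 and 1441 with DESeq2 and 534 higher with sex as a covariate. Leaving out a tumour gave 0 to 1183 higher and 0 to 1059 lower. Without MiRNC670, Nf803 or Nf827 no gene was called by edgeR, while 3240, 3335 and 3265 had an unadjusted p under 0.05; the cause was not tested.

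Among 31 named members, 3 changed sign under an alternative. Cox6a2 had 0.16 without MiRNC670 and Nf809 together, and -2.29 to 2.08 when a tumour was left out. Cox6b2 had -0.01 with upper quartile scaling, -0.02 with limma voom, -0.08 without MiRNC670 and Nf809 together, and -0.50 to 0.38 when a tumour was left out. Ndufa8 had -0.27 to 0.11 when a tumour was left out. The cause was not tested. No paired analysis was possible because the groups share no replicate numbers. Depth limits the low members: Ndufa4l2 and Cox4i2 had too few reads to be tested.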
